A study of Drosophila melanogaster with 53 samples.

Results

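Whole adult males of Drosophila melanogaster collected 10 days after an exposure of 10000 R were compared with unirradiated males of the same day. R stands for roentgen, a unit of radiation exposure. The comparison rests on 6 of the 53 RNA libraries of the study: 3 libraries of males given 10000 R and sampled at day 10, and 3 of control males kept at background radiation and sampled at day 10, taken by the column headings of the deposited table. In the whole study males received 10, 1000, 5000, 10000 or 20000 R, or none, at 2 days after eclosion, and whole bodies were sampled 2, 10 and 20 days later. By its title the study is about a threshold dose. That the flies were male is given by the study's design text for all libraries together, and the labels of single libraries give no sex. The labels give no strain, genotype, radiation source or number of flies per library, and they do not say that libraries of a group come from separate cultures. The p-values therefore describe the spread among libraries, part of which may be technical. The letters a, b and c only name the libraries of a group. The 6 libraries held 19.3 to 35.9 M reads and had 12732 to 13763 of 15222 genes above 0.

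The adult testis holds germ cells of every stage, from stem cells through dividing spermatogonia and growing spermatocytes to spermatids, which build a tail and condense their chromatin. Most spermatid transcripts are made earlier, in primary spermatocytes, under regulators such as aly, and many of them are used nowhere else in the fly. Cells that divide are in general more easily killed by radiation than cells that do not, and in adult flies most divisions take place in the germ line and gut. In whole-body RNA fewer cells of a type and less RNA per cell cannot be told apart.

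One irradiated library stood apart from the other 2. Yp1, a yolk protein gene of the female fat body and ovary, had, in normalized counts, 329, 508 and 116245 in irradiated libraries a, b and c, against 101, 51.3 and 75.2 in controls a, b and c. In 51 other libraries its highest value was 1343, and the one further library with a high value was library a of 10 R at day 10, with 89258. The yolk receptor gene yl had 14.3, 16.4 and 8591 after 10000 R, against 128, 88.8 and 108 in controls. The egg thioredoxin dhd had 0, 10.1 and 3199 after 10000 R, against 24.5, 16.5 and 11.8 in controls. The germ plasm gene osk had 4.76, 11.7 and 1178 after 10000 R, against 2.45, 3.66 and 1.18 in controls. Library c thus held these yolk and egg transcripts far above a, b and the controls, although the design text gives males for all libraries. Whether female flies or tissue were included was not tested. Of the eggshell genes of late egg chambers, Cp36 had 0, 0 and 0 after 10000 R, against 6.13, 0 and 0 in controls, Cp38 had 0, 6.24 and 3.85 after 10000 R, against 9.81, 0 and 1.18 in controls and Cp18 had 36.9, 31.997 and 23.7 after 10000 R, against 15.9, 28.4 and 31.7 in controls. The vitelline membrane gene Vm26Ab had 0, 0 and 29.5 after 10000 R, against 20.9, 2.75 and 3.52 in controls, so among the irradiated libraries it was above 0 in c alone, and the groups overlapped in all 4. Cp15 had 0, 10.1 and 0 after 10000 R, against 35.6, 18.3 and 25.8 in controls, without overlap and without a call (limma, adjusted p = 0.126). Cp16 had 0, 0.780 and 0, against 3.68, 0 and 0 in controls. Vm32E had 0, 0 and 0, against 6.13, 0.915 and 0 in controls. In library a of 10 R at day 10, Cp36 had 12205 and Cp38 22749. The eggshell and ovary list as a whole, 28 genes of which 27 were tested, summed to 1042, 1172 and 16916 in irradiated libraries and 14849, 11780.1 and 12852 in controls, most of the control sum being exu, which is also expressed in testis. The male-specific lncRNA:roX1 had 11853, 9612 and 8727 after 10000 R, against 9681, 11930.0 and 10810.0 in controls, and the groups overlapped. Results that rest on library c are given with and without it, and the part of egg transcripts in them was not tested.

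**Figure D1:**
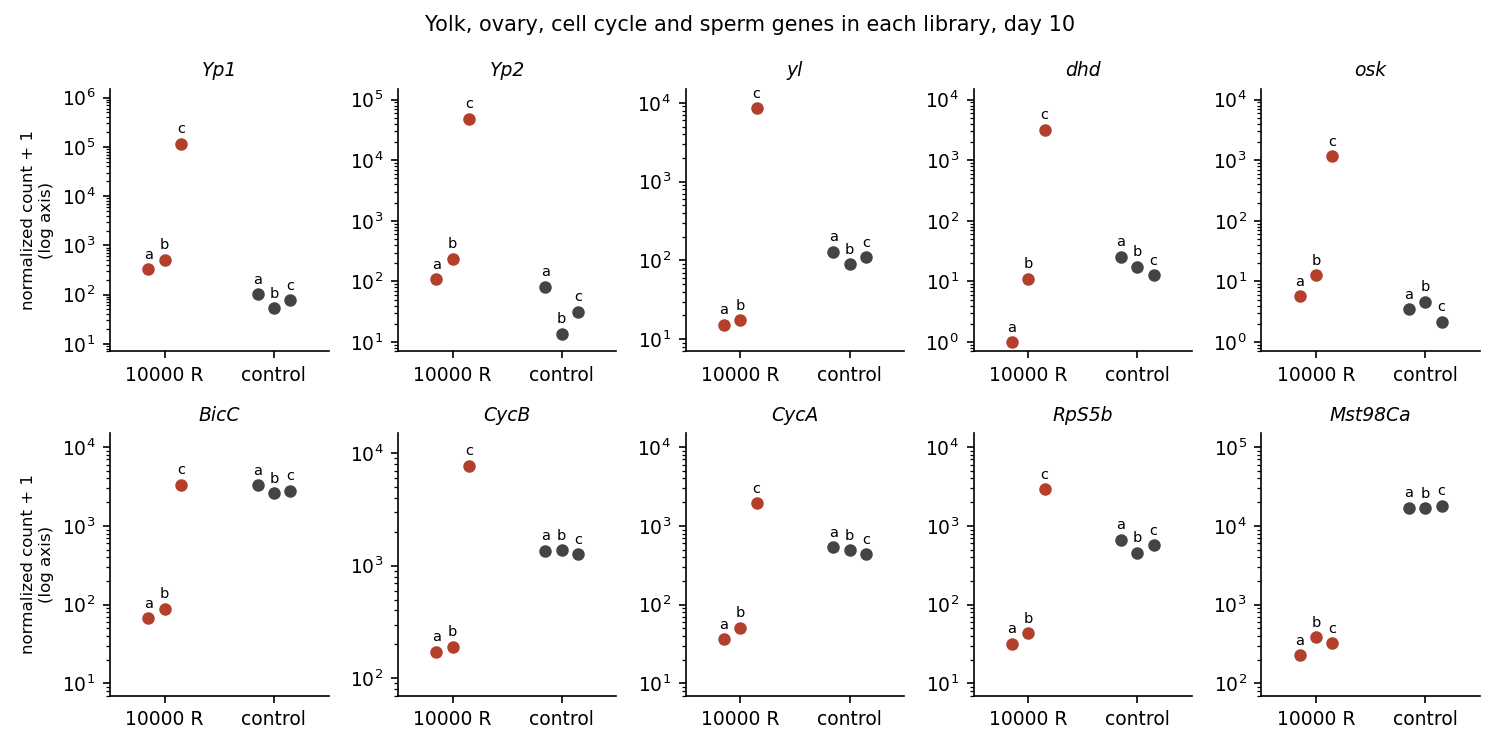
Normalized counts + 1 (log axis) of 10 genes in the 3 irradiated (left) and 3 control libraries (right) of day 10, each point 1 library. Irradiated library c stands at 116245 for Yp1 and 7738 for CycB, above every control, while Mst98Ca is about as low in c (326) as in a (226) and b (383).

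After 10000 R falls outnumbered rises and were far deeper, and the lists with the lowest medians were those of spermatids. Of 12475 genes tested, 2755 (22.1%) passed an adjusted p of 0.05 in limma, 276 (2.21%) of them higher and 2479 (19.9%) lower after 10000 R. Changes are differences of log2(normalized count + 1), which makes the change of weakly expressed genes look smaller. The falls were deep, with a median log2 change of -4.61, 1827 of them beyond -2 and 1079 beyond -5. The rises were shallow, with a median of 0.48 and 24 beyond 1. Genes called lower made up 3.44%, 3.56% and 3.83% of all normalized counts in irradiated libraries a, b and c, against 18.3%, 15.9% and 16.1% in controls. When each of the 6 libraries was left out in turn, 2094 of the falls were called every time, and 60 of the rises. The median change over all genes was 0.03. Quantile normalization, which forces one distribution on all libraries, moved that median to 0.43 and gave 3808 rises and 2149 falls, 266 and 2124 of them shared with the calls above.

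**Figure D2:**
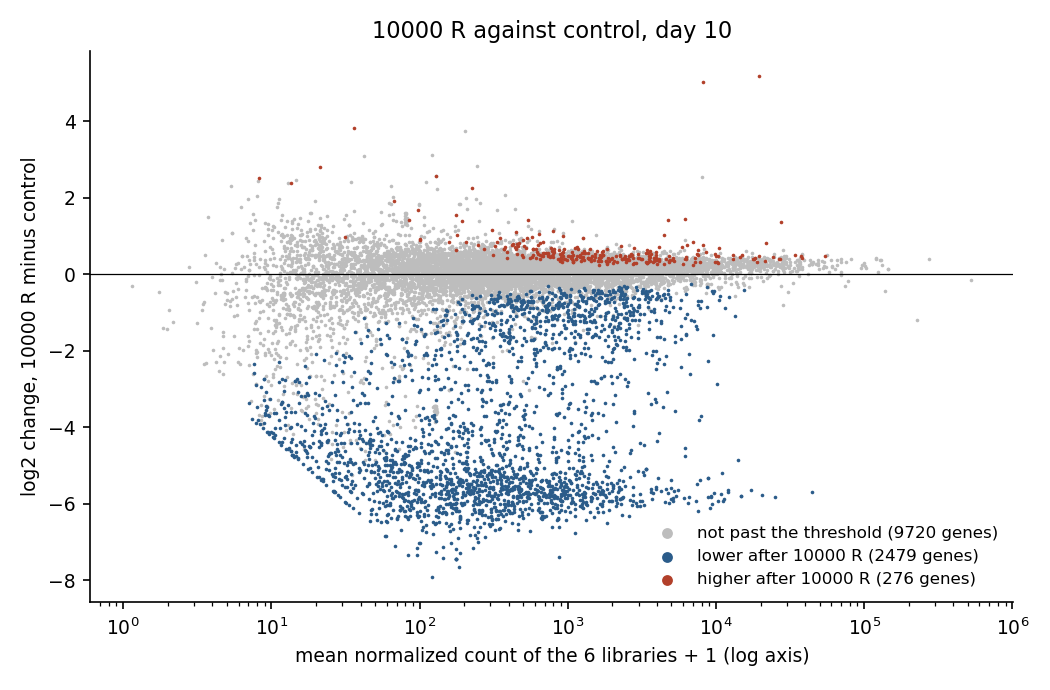
Log2 change (10000 R minus control, day 10) against the mean normalized count of the 6 libraries + 1 (log axis), each point 1 of 12475 genes tested. The 2479 genes called lower reach down to -7.92 with a median of -4.61, while the 276 called higher have a median of 0.48 and a maximum of 5.19, for Yp1.

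Genes for the sperm tail and sperm chromatin were nearly gone from the irradiated males. Mst98Ca, a gene for a tail protein of spermatids, had 226, 383 and 326 normalized counts in irradiated libraries, against 16977, 16738 and 17962 in controls. The groups were far apart, with a log2 change of -5.82 ± 0.21 (SE; limma, adjusted p = 3.73e-24). The related Mst98Cb had 114, 271 and 149 after 10000 R, against 9068, 9602 and 10690.0 in controls, a change of -5.86 ± 0.22. Mst87F, a small cysteine-rich tail protein, had 98.8, 131 and 142 after 10000 R, against 6684, 7375 and 7758 in controls. Chromatin proteins of sperm fell as deeply: Mst77F, which packs sperm DNA, had 125, 82.7 and 85.9 after 10000 R, against 7867, 5554 and 5795 in controls, and the protamine ProtB had 17.9, 23.4 and 17.3 after 10000 R, against 2482, 2101 and 2108 in controls. In all, 23 of 23 members of the list fell, with a median of -5.86, beside 19.9% of all genes and an all-gene median of 0.03. Counts of the testis lists below are read beside the same 19.9% lower and 2.21% higher of all genes. A median of 1.70% of the control mean was left, and the members ranged from 0.875% to 6.56%. The list summed to 1351, 1950.3 and 1571 in irradiated libraries and 91629.8, 89937 and 93662 in controls. For dj, a gene of the tail, 1 control library stood apart, with 5.95, 0 and 0 after 10000 R, against 377, 75.97 and 61.1 in controls.

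**Figure D3:**
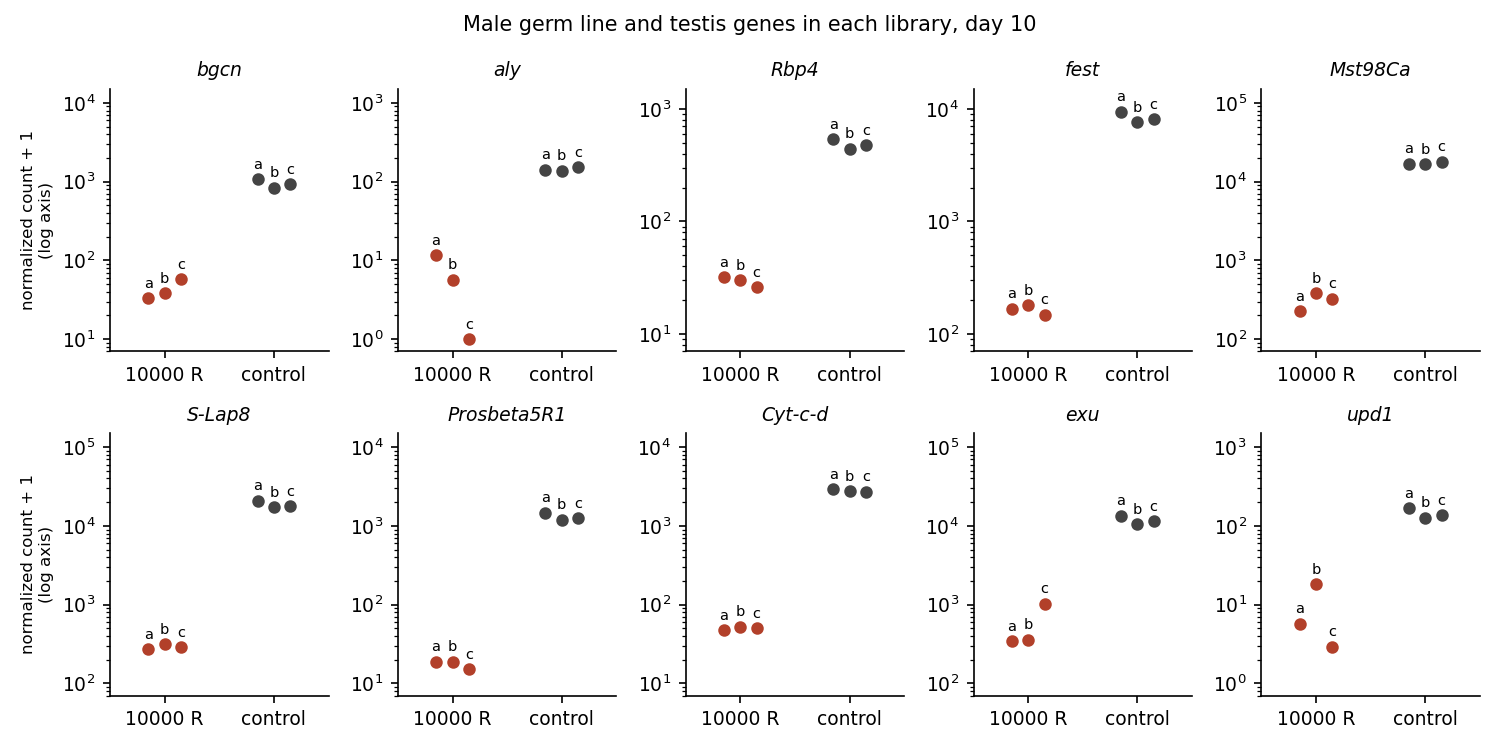
Normalized counts + 1 (log axis) of 10 testis genes, from early germ cells (bgcn) and spermatocytes (aly, Rbp4, fest) to spermatids and the hub ligand upd1, in the 3 irradiated (left) and 3 control (right) libraries of day 10, each point 1 library. In every panel the irradiated libraries lie below all controls, and exu is higher in irradiated library c (1028) than in a (344) and b (357).

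The sperm leucylaminopeptidases, abundant proteins of the mitochondrial material of the tail, fell as a family. S-Lap8 had 270.2, 312.2 and 289 normalized counts in irradiated libraries, against 20787, 17181 and 17898 in controls, a log2 change of -5.996 ± 0.21 (SE; limma, adjusted p = 3.73e-24). The related loopin-1 had 583, 864 and 771 after 10000 R, against 47661, 36575 and 36854 in controls. All 9 of 9 members tested fell, with a median of -5.82 and 1.78% of control left. The shallowest fall was that of grsm, with 1793, 1863 and 1847 after 10000 R, against 4737, 3946 and 4072 in controls, a change of -1.21 ± 0.14. Several members are close in sequence, so the split of reads between them is uncertain.

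Cup and comet genes are transcribed after meiosis, in elongating spermatids. Of 17 tested, 16 fell, with a median of -5.74. In this group hale had 15.5, 31.2 and 29.5 normalized counts in irradiated libraries, against 1736, 1591 and 1669.6 in controls, a log2 change of -6.04 ± 0.29 (SE; limma, adjusted p = 3.6e-20), and boly had 35.7, 63.2 and 39.1 after 10000 R, against 2689, 2239 and 2412 in controls, a change of -5.74 ± 0.33. The member that missed the threshold, t-cup, had 0, 1.56 and 1.92 after 10000 R, against 62.6, 25.6 and 10.6 in controls (-3.78 ± 2.05, adjusted p = 0.223), in groups that did not overlap. The shallowest call was that of m-cup, with 682, 529.9 and 700.1 after 10000 R, against 4401, 3617 and 3667 in controls (-2.61 ± 0.18, adjusted p = 2.06e-15).

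Many general cell machines have a second copy used in the testis, and most of the copies tested fell. All 12 of 12 testis proteasome subunits fell, with a median of -5.35, while of 32 general subunits 1 fell and the median was -0.16. In 15 of the 32 all irradiated libraries lay below all controls, beside 28.1% of all genes, and in 7 above, beside 21.7%. Without the 9 libraries of the series that stand apart, 8 of the 32 were called lower and 2 higher. Prosbeta5R1, a testis copy of a catalytic subunit, had 17.9, 17.9 and 14.1 normalized counts in irradiated libraries, against 1462, 1195 and 1259.6 in controls, a log2 change of -6.21 ± 0.31 (SE; limma, adjusted p = 1.36e-19). Another testis copy, Prosalpha6T, had 16.7, 34.3 and 20.5 after 10000 R, against 905, 874 and 860.1 in controls. The general subunit that fell was Rpn6 of the proteasome lid, with 3311, 3285 and 3340.4 after 10000 R, against 4550.5, 4771 and 4606 in controls (-0.49 ± 0.11, adjusted p = 0.000383).

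Of 19 testis paralogs of respiratory chain subunits 17 fell, with a median of -5.23. Cyt-c-d, the cytochrome c of the testis, had 46.4, 51.5 and 49.4 normalized counts in irradiated libraries, against 2942, 2765 and 2729 in controls, a log2 change of -5.81 ± 0.21 (SE; limma, adjusted p = 7.37e-24). COX5BL, a copy of a cytochrome oxidase subunit, had 49.998, 42.1 and 42.3 after 10000 R, against 1382, 1149 and 1110.3 in controls. Of 60 general respiratory chain subunits limma called 0, with 1 at an unadjusted p under 0.05, and edgeR called 1 and DESeq2 0. Their median was 0.14.

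Of 26 genes listed as further testis paralogs, among them hexokinases, chaperones, ribosomal proteins and a tubulin, 20 fell and none rose. Hex-t2, a testis hexokinase, had 38.1, 68.7 and 42.3 normalized counts in irradiated libraries, against 3054, 2701 and 2788 in controls, a log2 change of -5.86 ± 0.20 (SE; limma, adjusted p = 9.03e-25). Its relative Hex-t1 had 2.38, 0.780 and 1.28 after 10000 R, against 377, 382 and 355 in controls. Hsp60B, a mitochondrial chaperone that spermatids need to separate from each other, had 174, 234 and 199 after 10000 R, against 13350.0, 12608 and 12085 in controls (-5.97 ± 0.24, adjusted p = 2.49e-22). Among the 6 that were not called, the germ cell ribosomal protein RpS5b is described with library c below. RpL24-like had 3501, 3729.6 and 4119 after 10000 R, against 2963, 3313 and 3147 in controls. The tubulin alphaTub67C had 4.76, 13.3 and 1421 after 10000 R, against 3.68, 9.15 and 5.87 in controls, so it was high in library c alone. Whether every member of the list is used mainly in the testis was not tested.

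Motor and axoneme genes of the tail gave 11 falls among 12 tested, with a median of -3.98. Klp59D, a kinesin, had 49.998, 86.6 and 87.2 normalized counts in irradiated libraries, against 3988, 3487 and 3386 in controls, a log2 change of -5.62 ± 0.36 (SE; limma, adjusted p = 1.44e-16). Tektin-C, a filament protein of microtubule doublets, had 48.8, 52.3 and 76.3 after 10000 R, against 2342, 1831 and 1767 in controls. The near-identical Sdic1 and Sdic4 changed by -1.76 and -1.57, and their reads cannot be assigned to one copy with certainty. The dynein heavy chain Dhc93AB had 229, 267 and 280.2 after 10000 R, against 211, 249 and 228 in controls (0.17 ± 0.31, adjusted p = 0.851), in groups that overlapped.

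Regulators of spermatocytes had a shallower median. Of 21 tested 19 fell, with a median of -3.32 and 8.79% of control left, and the difference from the spermatid lists was not tested. The meiotic arrest gene aly, a switch for the spermatocyte programme, had 10.7, 4.68 and 0 normalized counts in irradiated libraries, against 141, 136 and 152 in controls, a log2 change of -5.15 ± 1.07 (SE; limma, adjusted p = 0.000179). The RNA-binding protein Rbp4 had 30.95, 28.9 and 25.005 after 10000 R, against 539, 442 and 472 in controls, a change of -4.05 ± 0.57, and fest, its partner in the control of translation at meiosis, had 167, 179 and 147 after 10000 R, against 9464, 7568 and 8066 in controls, a change of -5.66 ± 0.24. The homeodomain protein vis had 146, 134 and 158 after 10000 R, against 1202, 1119 and 1059.8 in controls, a change of -2.94 ± 0.26.

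Of 19 genes of germline stem cells and spermatogonia tested, 3 fell and none rose, with a median of -0.94, a share of falls near the 19.9% of all genes. The differentiation factor bgcn had 32.1, 37.5 and 56.4 normalized counts in irradiated libraries, against 1074, 837 and 921 in controls, a log2 change of -4.49 ± 0.51 (SE; limma, adjusted p = 1.56e-09). The piRNA factor mael had 19.05, 16.4 and 108 after 10000 R, against 369, 221 and 236 in controls, a change of -2.998 ± 0.56, and library c lay above a and b. The third fall was chinmo, a transcription factor of stem cells that neurons also use, with 907, 641 and 582 after 10000 R, against 2381, 1879 and 1834 in controls (-1.53 ± 0.32, adjusted p = 0.000218). The switch gene bam had 8.33, 0 and 15.4 after 10000 R, against 44.2, 28.4 and 28.2 in controls and missed the threshold (-2.66 ± 1.002, adjusted p = 0.0517), in groups that did not overlap. Without irradiated library c the list had 5 falls and a median of -1.63. Under quantile normalization the median was 0.27, so its sign depends on the scaling. It lay below the median of all genes in both, which was 0.43 under quantile normalization and 0.03 without it. The genes bgcn, mael and chinmo were called lower under quantile normalization too.

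Somatic cells of the testis were read through 11 genes of cyst and hub cells, of which 2 fell and 1 rose, with a median of 0.13. These few calls stand beside 19.9% lower and 2.21% higher of all genes, so the count of falls is near the background. The hub ligand upd1, which maintains stem cells, had 4.76, 17.2 and 1.92 normalized counts in irradiated libraries, against 166, 125 and 135 in controls, a log2 change of -4.40 ± 0.75 (SE; limma, adjusted p = 8.37e-06). The transcription cofactor eya, which cyst cells need, had 324, 382 and 384 after 10000 R, against 914, 594 and 676 in controls (-0.98 ± 0.26, adjusted p = 0.00355). That call was lost under quantile normalization, at -0.57 with an adjusted p of 0.0934. The cyst cell factors tj, with 65.5, 53.1 and 76.9 after 10000 R, against 87.1, 68.6 and 70.5 in controls, and zfh1, with 820.2, 876 and 1107 after 10000 R, against 829, 707 and 813 in controls, were not called, and their groups overlapped. The phosphatase puc was the rise, with 1237, 979 and 1405 after 10000 R, against 848, 980.2 and 852 in controls (0.42 ± 0.16, adjusted p = 0.0476). Its groups overlapped, and it was called in 2 of the 6 fits that leave out 1 library.

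**Figure D4:**
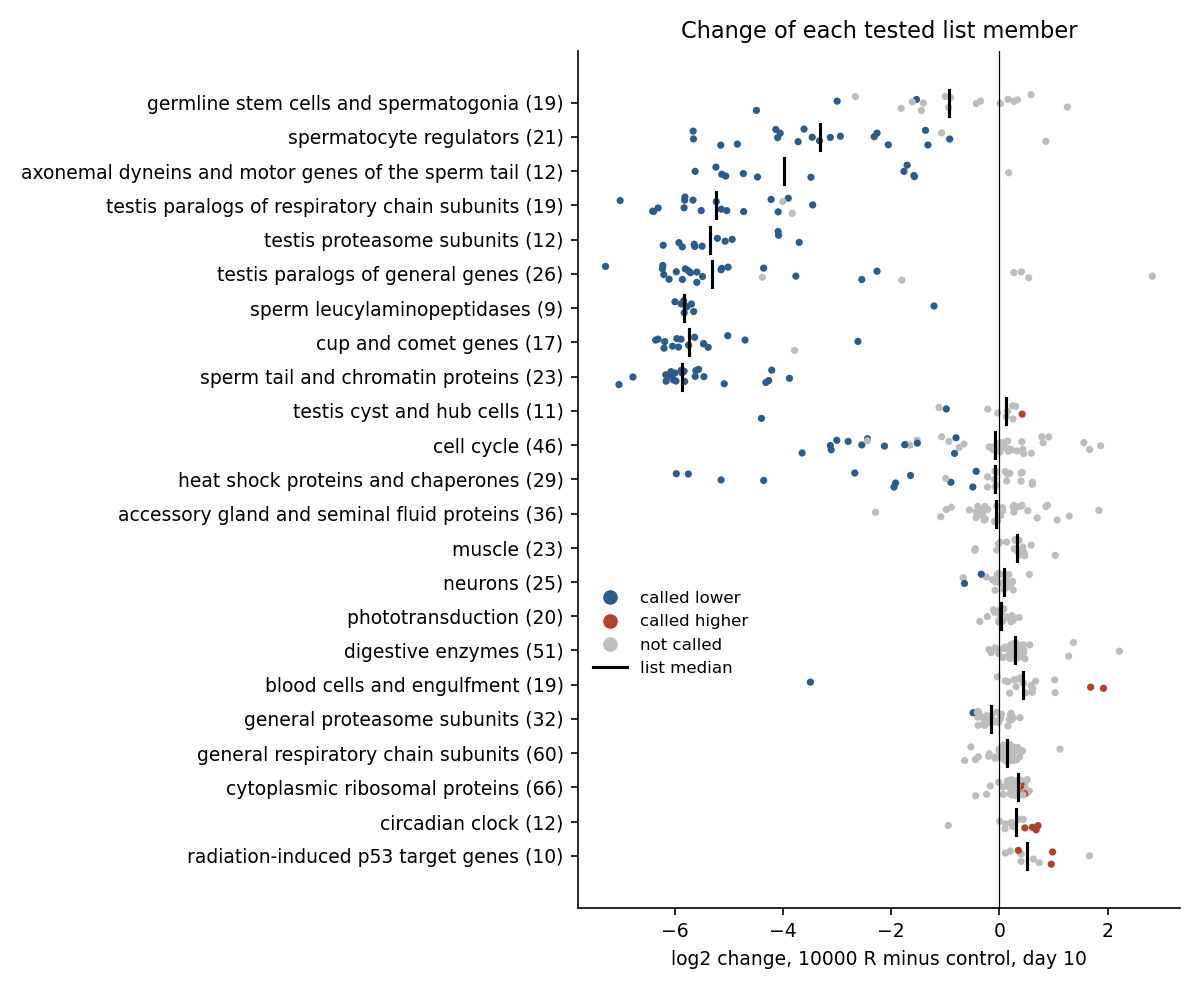
Log2 change (10000 R minus control, day 10) of each tested member of 23 gene lists, with calls coloured by direction and black bars at list medians. The median is -5.86 for sperm tail and chromatin proteins and -3.32 for spermatocyte regulators, and 0.33 for muscle and 0.04 for phototransduction.

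Of 29 chaperones tested, 11 fell and none rose, beside 19.9% lower of all genes. The testis chaperone Hsp60C had 306, 456 and 425 normalized counts in irradiated libraries, against 24172, 19761 and 19450.0 in controls, a log2 change of -5.75 ± 0.27 (SE; limma, adjusted p = 2.93e-20). The small heat shock protein Hsp23 had 159.5, 180.3 and 187 after 10000 R, against 648, 697 and 649.8 in controls, a change of -1.92 ± 0.26, and the inducible Hsp68 had 413, 331 and 613 after 10000 R, against 1861, 1634 and 1591 in controls, a change of -1.95 ± 0.22. Hsp27 had 246, 189 and 1703 after 10000 R, against 3360.4, 2429 and 2534 in controls, a change of -2.67 ± 0.50, with library c nearer to the controls. Hsp70Ba, 1 of several near-identical inducible copies, had 345, 506 and 436 after 10000 R, against 487, 434 and 411 in controls and was not called.

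Of 46 cell cycle genes 12 fell and none rose with limma, a share of falls near the 19.9% of all genes. With edgeR 5 were called higher and 9 lower, beside 553 and 2324 of all 12475 genes. DESeq2 called 7 higher and 10 lower, beside 418 and 2540. The centrosome protein cnn had 1405, 1560.1 and 1663 normalized counts in irradiated libraries, against 4667, 4467 and 4103 in controls, a log2 change of -1.52 ± 0.15 (SE; limma, adjusted p = 5.67e-11). The centriole protein asl had 114, 95.99 and 244 after 10000 R, against 851, 710.2 and 717 in controls, a change of -2.44 ± 0.34. The mitotic kinase polo had 44.05, 28.1 and 895 after 10000 R, against 1613, 1164 and 1223 in controls, a change of -3.65 ± 0.71, with library c far above a and b but below all controls. The list median was -0.08 over all libraries, -0.91 without irradiated library c, with 15 falls, and 0.51 under quantile normalization, where that of all genes was 0.43.

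In irradiated library c 400 genes stood above all controls while libraries a and b stood below all of them, and 200 of these exceeded a and b by more than 1 log2 unit. The same count was 312 with library a in that place, 101 of them by more than 1, and 56 with library b, 10 of them by more than 1. CycB, the mitotic cyclin B, had 171, 189.6 and 7738 normalized counts in irradiated libraries, against 1361, 1374 and 1257 in controls. Its log2 change was -1.07 with all libraries, without a call, and -2.88 without library c (limma, adjusted p = 4.77e-06). With edgeR, which averages counts and not their logarithms, the sign turned, at 1.09 without a call (adjusted p = 0.299). CycA, the S and G2 phase cyclin, had 35.7, 49.9 and 1954 after 10000 R, against 531, 493 and 436 in controls, with a change of -3.49 without library c (adjusted p = 0.00231). RpS5b had 30.95, 42.1 and 2938 after 10000 R, against 666, 455 and 565 in controls, with -3.91 without library c (adjusted p = 2.48e-07). The translational repressor BicC was called lower with all libraries (-3.40 ± 0.68, adjusted p = 0.000102) and had 66.7, 88.2 and 3338 after 10000 R, against 3277, 2582 and 2782 in controls. With edgeR its change was -1.23, without a call (adjusted p = 0.189). Without library c 114 further falls were called, 21 of them copies of the histone gene His2B, which share reads.

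Yp1 and Yp2 had the largest rises among the genes called, and their size rests on library c. Yp1 changed by 5.19 ± 1.58 and Yp2 by 5.04 ± 1.67 (SE; limma, adjusted p = 0.0122 and 0.0232). Without library c they changed by 2.47 and 2.30, with no call (adjusted p = 0.318 and 0.423), although a and b lay above all controls in both. Without all 9 libraries of the series that stand apart, the change of Yp1 was 2.47 with an adjusted p of 0.0197. The call of Yp1 held in 5 and that of Yp2 in 3 of the 6 fits that leave out 1 library. Both calls were lost with only the libraries of day 10 (adjusted p = 0.123 and 0.168) and with only the 6 libraries (adjusted p = 0.0852 and 0.105), and DESeq2 gave no adjusted p for them. Yp3, the third yolk protein gene, had 543, 575 and 46271 after 10000 R, against 436, 365 and 448 in controls and was not called (2.55 ± 1.07, adjusted p = 0.0902). Its change was 0.43 without library c (adjusted p = 0.891). Of the 276 rises 154 lost their call without library c and 19 others appeared. Without c 122 of the rises kept their call. With another of the 6 libraries left out instead, 139 to 195 kept it, so much of this loss was not particular to c.

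Of the 276 rises 24 exceeded 1 on the log2 scale and 8 exceeded 2. Outside the yolk genes those beyond 2 include CG14499, with 574, 258 and 279.5 after 10000 R, against 34.4, 125 and 86.9 in controls (2.24 ± 0.76, adjusted p = 0.0267), and GstD2, described with the detoxification genes. Arc1, a capsid-like protein related to the Arc protein of mammalian neurons, had 38992, 41005 and 38594 normalized counts in irradiated libraries, against 17191, 13544 and 15814 in controls, a log2 change of 1.36 ± 0.20 (SE; limma, adjusted p = 8.07e-07). Its relative Arc2 had 424, 395 and 455 after 10000 R, against 212, 185 and 177 in controls (1.15 ± 0.28, adjusted p = 0.00126). Nfs1, the desulfurase that provides sulfur when iron-sulfur clusters are built, had 6408, 5769 and 5701 after 10000 R, against 2922, 2899 and 3008 in controls (1.02 ± 0.14, adjusted p = 8.22e-08). IscU, the scaffold on which the clusters form, had 14615, 12918 and 11381 after 10000 R, against 9748, 7281 and 7390.5 in controls (0.68 ± 0.22, adjusted p = 0.0196), and was called in 2 of the 6 fits that leave out 1 library (adjusted p up to 0.0946). CR10102 had 8486, 9579 and 9036 after 10000 R, against 3574, 2805 and 3681 in controls (1.44 ± 0.21, adjusted p = 3.13e-07), and Srg3 had 7218, 6865 and 6596 after 10000 R, against 3011, 2649.6 and 2202 in controls (1.41 ± 0.28, adjusted p = 9.82e-05). Arc1, Arc2, Nfs1, CR10102 and Srg3 were called in all 6 such fits and under quantile normalization.

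Of 10 genes known from embryos and larvae as targets of p53 after radiation, 3 rose and none fell. These counts stand beside 2.21% higher and 19.9% lower of all genes, and the list median was 0.52. Gadd45, a stress gene, had 731, 724 and 828 normalized counts in irradiated libraries, against 415, 362 and 377 in controls, a log2 change of 0.98 ± 0.21 (SE; limma, adjusted p = 0.000229), and was called whichever 1 library was left out. Irbp, the Ku70 protein that binds broken DNA ends, had 459.5, 364 and 564 after 10000 R, against 213, 239 and 250.3 in controls (0.96 ± 0.33, adjusted p = 0.0293). Xrp1, a DNA-binding stress factor, had 25742, 22833 and 23153 after 10000 R, against 18747, 19380.0 and 18049 in controls (0.35 ± 0.12, adjusted p = 0.0267). The groups did not overlap in these 3 genes, but the call of Irbp held in 1 and that of Xrp1 in 3 of the 6 fits, and Xrp1 lost it under quantile normalization, at 0.19 (adjusted p = 0.131). RnrL, a subunit of ribonucleotide reductase, had 283, 315 and 972 after 10000 R, against 147, 114 and 159 in controls and missed the threshold (1.67 ± 0.85, adjusted p = 0.185). The death gene hid had 176, 176 and 310.3 after 10000 R, against 207, 187 and 199 in controls and p53 itself 233, 165 and 176 after 10000 R, against 177, 171 and 148 in controls, in groups that overlapped.

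The list of repair and checkpoint genes does not hold Irbp, a repair gene counted above with the p53 targets. Of its 42 genes tested 2 fell and none rose, beside 19.9% lower and 2.21% higher of all genes. Blm, a helicase of recombination, had 273, 251 and 459 normalized counts in irradiated libraries, against 1064, 759 and 913 in controls, a log2 change of -1.52 ± 0.25 (SE; limma, adjusted p = 3.5e-06). The photolyase phr6-4 had 30.95, 35.1 and 35.3 after 10000 R, against 207, 202 and 172 in controls, a change of -2.48 ± 0.33.

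Of 12 clock genes 4 rose and none fell, beside 2.21% higher and 19.9% lower of all genes, with a median of 0.30. The repressor tim had 7896, 7316 and 6764 normalized counts in irradiated libraries, against 4455, 4633 and 4291 in controls, a log2 change of 0.71 ± 0.11 (SE; limma, adjusted p = 6.01e-07), and was called whichever 1 library was left out. Its partner per had 1486, 1416 and 1241 after 10000 R, against 897, 814 and 871 in controls (0.68 ± 0.25, adjusted p = 0.0461). The groups did not overlap, but the call was lost in each of the 6 fits (adjusted p 0.0543 to 0.131). The activator cyc and the repressor vri changed by 0.47 and 0.61, and each was called in 2 of the 6 fits. The labels give no hour of collection, and its part in these values was not tested.

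Of 66 cytoplasmic ribosomal protein genes tested 6 rose and none fell, beside 2.21% higher of all genes. In 55 of them all irradiated libraries lay above all controls, beside 21.7% of all genes. RpL3 had 58798, 63262 and 68277 normalized counts in irradiated libraries, against 49532, 42141 and 44999 in controls, a log2 change of 0.48 ± 0.15 (SE; limma, adjusted p = 0.0126). RpS4 had 30099, 28812 and 31006 after 10000 R, against 23460.0, 21424 and 23889 in controls (0.39 ± 0.11, adjusted p = 0.00716). The list median was 0.35, and 0.22 under quantile normalization, where the median of all genes was 0.43, so the place of the list relative to other genes depends on the scaling. No member was called in all 6 fits that leave out 1 library. The translation factor eIF4A (0.43 ± 0.11, adjusted p = 0.00281) and the aspartyl-tRNA synthetase AspRS (0.41 ± 0.09, adjusted p = 0.000608) were called in all 6. Under quantile normalization the calls of RpL3, RpS4 and eIF4A were lost (adjusted p = 0.0512, 0.26 and 0.227), and AspRS was called (adjusted p = 3.23e-05).

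Of 19 genes of blood cells and engulfment 2 rose and 1 fell, beside 2.21% higher and 19.9% lower of all genes. NimC2, of the Nimrod family of phagocytosis receptors, had 98.8, 143 and 199 normalized counts in irradiated libraries, against 34.4, 34.8 and 66.97 in controls, a log2 change of 1.69 ± 0.34 (SE; limma, adjusted p = 9.73e-05), and was called whichever 1 library was left out. The engulfment receptor NimC4 had 29.8, 65.6 and 236 after 10000 R, against 9.81, 28.4 and 27.02 in controls (1.92 ± 0.66, adjusted p = 0.0303), and without library c its change was 1.13 (adjusted p = 0.334). The blood cell markers Hml, with 3398, 4757 and 2617 after 10000 R, against 2254, 2077 and 2551 in controls, and NimC1, with 63.1, 104 and 70.5 after 10000 R, against 47.8, 35.7 and 30.5 in controls, did not overlap between groups but were not called. In 12 of the 19 all irradiated libraries lay above all controls, beside 21.7% of all genes, and in 1 below, beside 28.1%. The whole list, 21 genes of which 19 were tested, summed to 34099.8, 39429.9 and 32747 in irradiated libraries and 24939.8, 22777 and 24943 in controls.

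Of 34 genes of immune recognition and signalling 3 rose and none fell, beside 2.21% and 19.9% of all genes. The protease modSP of the Toll cascade had 2755, 3144 and 2789.7 normalized counts in irradiated libraries, against 2022, 2211 and 2358 in controls, a log2 change of 0.40 ± 0.10 (SE; limma, adjusted p = 0.00235), and the serpin Spn88Ea had 1425, 1667 and 1533 after 10000 R, against 1011, 912 and 1116 in controls (0.61 ± 0.17, adjusted p = 0.00718). Of 16 antimicrobial peptides limma called 0, with 0 at an unadjusted p under 0.05, and edgeR and DESeq2 called 0. The counts were also 0 throughout for 8 Bomanins, short peptides of the Toll response.

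Detoxification and antioxidant genes held changes in both directions. GstD2, a glutathione S-transferase, had 152, 227 and 276 normalized counts in irradiated libraries, against 35.6, 26.5 and 44.6 in controls, a log2 change of 2.57 ± 0.80 (SE; limma, adjusted p = 0.0146), called in 4 of the 6 fits that leave out 1 library. GstS1, of the same superfamily, had 3982, 4140.1 and 3974 after 10000 R, against 11199, 10271 and 11148 in controls (-1.43 ± 0.16, adjusted p = 8.88e-10). Of 34 members 3 rose and 1 fell. Of 30 oxidative stress genes 1 rose and 4 fell. Both counts are read beside the same 2.21% and 19.9% of all genes. Among the falls the thioredoxin reductase Trxr2 had 16.7, 8.58 and 14.75 after 10000 R, against 1058, 851 and 760.2 in controls, a change of -5.99 ± 0.40, and the peroxiredoxin Prx1 had 4.76, 3.90 and 11.5 after 10000 R, against 443, 544 and 573 in controls, a change of -6.19 ± 0.59. The superoxide dismutase Sod1 had 18435, 15889 and 15659 after 10000 R, against 15117, 12710.0 and 13444 in controls, and the catalase Cat had 39621, 34710.0 and 34109 after 10000 R, against 34140.0, 33304 and 35322 in controls, neither called. In the iron list the ferritin Fer3HCH had 4.76, 6.24 and 0.641 after 10000 R, against 320.2, 248 and 283 in controls, a change of -6.11 ± 1.13, and the transporter Zip99C had 1738, 1473 and 1338 after 10000 R, against 2435, 2321 and 2346 in controls, a change of -0.65 ± 0.17.

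Lists of other tissues are read beside the 2.21% higher and 19.9% lower of all genes. Of 23 muscle genes, 20 phototransduction genes, 51 digestive enzymes and 36 accessory gland and seminal fluid genes limma called 0. In that order 1, 1, 7 and 0 had an unadjusted p under 0.05, edgeR called 0, 1, 3 and 0, and DESeq2 called 0, 0, 2 and 0. All irradiated libraries lay above all controls in 11, 1, 29 and 3 of them, beside 21.7% of all genes. They lay below all controls in 0, 2, 0 and 0, beside 28.1% of all genes. The list medians were 0.33, 0.04, 0.29 and -0.07. The rhodopsin gene ninaE of the eye had 75692, 72157 and 59769 normalized counts in irradiated libraries, against 65484, 72980.0 and 72767 in controls, in groups that overlapped. The accessory gland gene Met75Cb had 15285, 25465 and 28880.0 after 10000 R, against 12712, 41107 and 40512 in controls, so library a was the lowest in both groups. Of 25 neuronal genes 2 fell. The monoamine transporter Vmat had 2220.1, 2689 and 2098 after 10000 R, against 3915, 3609 and 3393 in controls (-0.65 ± 0.11, adjusted p = 4.5e-06), called whichever 1 library was left out. The dynamin shi had 2844, 2600.4 and 2249 after 10000 R, against 3295, 3334 and 3038 in controls (-0.33 ± 0.10, adjusted p = 0.00842) and lost its call without library c (adjusted p = 0.11).

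Of 62 cuticle protein genes 3 rose and 9 fell. In this list and the next 2 the share of falls was near or under the 19.9% of all genes, or rests on few genes. Twdlalpha, of the Tweedle cuticle family, had 35.7, 31.2 and 23.7 normalized counts in irradiated libraries, against 731, 659 and 697 in controls, a log2 change of -4.50 ± 0.35 (SE; limma, adjusted p = 7.65e-14). Of 32 odorant-binding proteins 1 rose and 4 fell. Obp99a had 30.95, 34.3 and 1194 after 10000 R, against 1497, 1493 and 1419 in controls, a change of -3.73 ± 0.62, with library c near the controls, and Obp44a had 5790.2, 7534 and 5168 after 10000 R, against 10249, 11320.0 and 11831 in controls (-0.87 ± 0.26, adjusted p = 0.0108), a call lost without library c (adjusted p = 0.067). Of 12 lysosomal mannosidases and adenosine deaminase growth factors 3 fell, with Adgf-B at 14.3, 24.2 and 31.4 after 10000 R, against 914, 935 and 956 in controls, a change of -5.33 ± 0.46. The RNA localization factor exu, used in eggs and testis, had 344, 357 and 1028 after 10000 R, against 13444, 10576 and 11544 in controls, a change of -4.55 ± 0.36.

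Some genes were not detected after 10000 R. All 3 irradiated libraries were at 0 in 60 of the genes called lower. CG1631 had 242 ± 19.4 normalized counts in controls and CG31752 had 164 ± 43.5 (SD, n = 3). With 3 reads over the 3 irradiated libraries as the limit that a count of 0 allows, they were at least 278-fold and 188-fold lower, a limit that covers counting error only. The carbonic anhydrase CAH4 had 0, 1.56 and 1.28 after 10000 R, against 302, 412 and 378 in controls, a log2 change of -7.65 ± 1.02, and the copper transporter Ctr1C had 0, 0 and 0.641 after 10000 R, against 194, 184 and 195 in controls. The X-linked CR43377 and CR43384 changed by -7.43 and -7.43, and they belong to a run of RNAs with near-identical values, so their reads cannot be assigned to single genes. Calls came from all large chromosome arms: 22.5% of tested genes fell on 2L, 20.2% on 2R, 20.9% on 3L, 19.6% on 3R and 18.1% on X, and 0 of 67 on chromosome 4.

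Set against 20000 R at day 10, some spermatid genes were higher at 10000 R and most were not called. The comparison uses the same 10000 R libraries as above. In it 87 genes (0.697%) were called, 64 higher (0.513%) and 23 lower (0.184%) at 10000 R. Mst98Ca averaged 311.7 ± 79.4 normalized counts at 10000 R and 137 ± 31.7 at 20000 R (SD, n = 3 each), a log2 difference of 1.17 ± 0.21 (SE; limma, adjusted p = 0.00139). S-Lap8 averaged 290.3 ± 21.03 at 10000 R and 139 ± 22.2 at 20000 R (1.07 ± 0.21, adjusted p = 0.00456). Hex-t2 differed by 1.18 and Hsp60C by 1.65. Of the sperm leucylaminopeptidases 4 of 9 were called higher at 10000 R, and of the sperm tail and chromatin list 2 of 23. Their median differences were 1.07 and 0.42. Of the cup and comet genes 1 of 17 was called higher, of the testis paralogs of respiratory chain subunits 1 of 19, and of the testis proteasome subunits none of 12. In these 3 lists the median difference was -0.12, -0.07 and -0.06, but the 20000 R libraries were split. The testis proteasome list summed to 784, 107 and 93.2 in 20000 R libraries a, b and c, against 181, 254 and 194 at 10000 R. In all 3 lists the sum of 20000 R library a lay above every 10000 R library, and b and c lay below all of them. The sign of these medians without 20000 R library a was not tested. The sperm tail and chromatin list summed to 1821, 971 and 898 at 20000 R, against 1351, 1950.3 and 1571 at 10000 R. There too 20000 R library a lay above b and c, and the list median without it was not tested. Called higher were also BicC (2.70) and Obp99a (2.53), both high in library c. The mitochondrial genes mt:CoI (-3.66) and mt:ND4 (-3.53) were lower at 10000 R. Library a of 20000 R stood apart, with 90346 normalized counts over the His1 copies. The number of calls was 198 without it, 53 without 10000 R library c and 35 without 10000 R library b.

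Between 5000 R and 10000 R the levels of the germ line genes parted. Against 5000 R at day 10, 3420 genes (27.4%) were called, 898 higher (7.2%) and 2522 lower (20.2%) at 10000 R. From control over 10, 1000, 5000 and 10000 to 20000 R, Mst98Ca averaged 17226 ± 649, 15809 ± 2102, 17890.0 ± 1778, 16015 ± 2097, 311.7 ± 79.4 and 137 ± 31.7 normalized counts (SD, n = 3 each). Up to 5000 R the groups overlapped with controls, and the log2 difference of 10000 R from 5000 R was -5.70 ± 0.21 (SE; limma, adjusted p = 8.07e-24). Of 23 sperm tail and chromatin genes 22 were lower at 10000 R than at 5000 R, of 12 testis proteasome subunits 12, and of 21 spermatocyte regulators 18.

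The genes that rose had other dose series. Arc1 averaged, in the same order of doses, 15516 ± 1842, 23411 ± 4725, 23794 ± 1352, 27107 ± 6518, 39530.0 ± 1292 and 57017 ± 6461 normalized counts (SD, n = 3 each). Its mean was higher at each dose step, and 10000 R differed from 5000 R by 0.57 ± 0.20 (SE; limma, adjusted p = 0.0319). Nfs1 averaged 2943 ± 57.5, 2937 ± 387, 3325 ± 112, 4999.5 ± 1059, 5959 ± 390.1 and 8294 ± 1803. It differed past the threshold neither from 5000 R (0.27 ± 0.14, adjusted p = 0.147) nor from 20000 R (-0.45 ± 0.14, adjusted p = 0.162). The level of tim differed from 5000 R (0.49 ± 0.11, adjusted p = 0.000323) and was not called against 20000 R (-0.10 ± 0.11, adjusted p = 1), and that of Gadd45 was not called against 5000 R (0.49 ± 0.21, adjusted p = 0.0747).

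**Figure D5:**
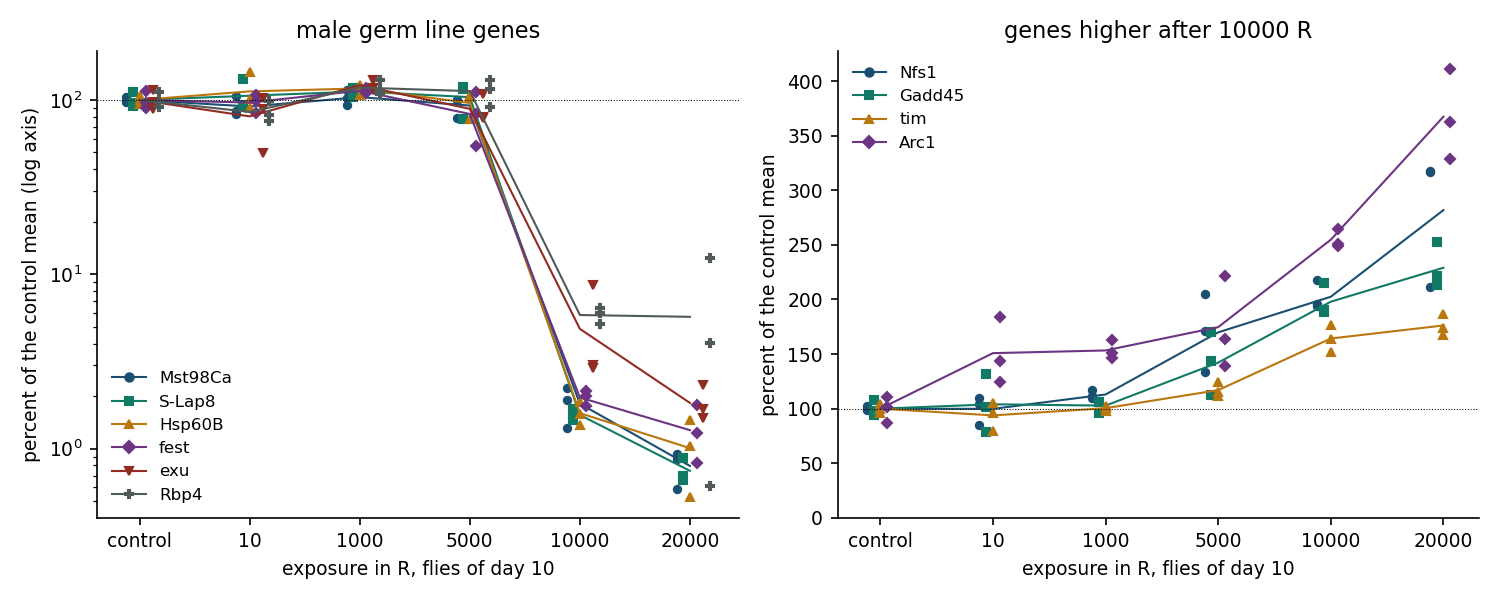
Level at day 10 as percent of the control mean for 6 male germ line genes (left, log axis) and 4 genes higher after 10000 R (right, linear axis), from unirradiated control to 20000 R, with points for libraries and lines through group means. Mst98Ca averages 16015 normalized counts at 5000 R, 311.7 at 10000 R and 137.0 at 20000 R, while Arc1 averages 27107, 39530.0 and 57017.

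The response at day 10 was also set against that at day 2, each against its own controls. The 2 responses differed for 1726 genes (13.8%), 14 higher (0.112%) and 1712 lower (13.7%) at day 10. At day 2 Mst98Ca averaged 21345 ± 1925 normalized counts after 10000 R and 20535 ± 1635 in controls (SD, n = 3 each), and the responses differed by -5.87 ± 0.29 (SE; limma, adjusted p = 6.54e-19). For bgcn the day 2 means were 1002 ± 11.5 after 10000 R and 985 ± 82.01 in controls, and the difference of responses was -4.52 ± 0.72. Rbp4 averaged 59.9 ± 28.8 after 10000 R and 461 ± 28.1 in controls at day 2, and its responses did not differ past the threshold (-1.03 ± 0.80, adjusted p = 0.713). For aly the day 2 means were 65.6 ± 19.3 after 10000 R and 159 ± 31.9 in controls (-3.87 ± 1.51, adjusted p = 0.0941).

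Against day 20, with 2 control libraries, limma called 1 gene (0.00802%), with 554 at an unadjusted p under 0.05, and edgeR called 0 and DESeq2 14. At day 20 Mst98Ca averaged 315 ± 71.9 normalized counts after 10000 R (SD, n = 3) and 15310.0 ± 2093 in controls (SD, n = 2). The gene called was obst-J, of a family of chitin-binding proteins, with 0, 0 and 0 after 10000 R, against 51.5, 59.5 and 57.6 in controls at day 10. At day 20 it averaged 8.60 ± 2.86 after 10000 R and 25.8 ± 35.1 in controls, and the responses differed by -5.72 (limma, adjusted p = 0.0174).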

How the data were processed

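RNA from whole flies, males by the design text, was sequenced from TruSeq libraries, per the labels' protocols. The submitters' processing notes name TopHat2 2.0, DESeq and the fly genome build dm3. The deposited signal is a normalized count per gene: in all 53 libraries every value was a whole number of reads divided by one size factor per library (100% of values, tolerance 0.1). The libraries held 15.4 to 46.2 M reads. Of 15222 gene IDs 14347 matched a symbol.

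Genes with a mean of at least 10 over all libraries were kept (12475). limma 3.58.1 (R 4.3.3) was fitted to log2(normalized count + 1) with 18 group means over 53 libraries and a mean-variance trend, and adjusted p-values (Benjamini-Hochberg) come from it unless another tool is named. Each comparison is a contrast of that fit. Alternatives were a pseudocount of 10, no filter, quantile normalization, edgeR 4.0.16 and DESeq2 1.42.0 on the recovered reads, fits of only the day 10 or only the 6 libraries, a fit without 9 libraries that stand apart (under 12300 genes above 0, or Yp1 or His1 above 50000), and each library left out. The code was tested on simulated data. Tables were handled in pandas 2.3.3.

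The comparison and its 49 gene lists were chosen with earlier results of these data known. 74 list symbols matched no gene. Genes were named by rule: the 15 largest changes each way with a mean of at least 50, 2 members per list each way, the 5 largest each way in other contrasts, the 10 with the largest gap between irradiated libraries, and a fixed set. AspRS, Cat, Cp15, Cp16, Cp18, Cp36, Cp38, CycA, CycB, Dhc93AB, Hml, Hsp23, Hsp27, Hsp68, Hsp70Ba, Mst77F, NimC1, ProtB, Rbp4, RpL24-like, RpS5b, Sdic1, Sdic4, Sod1, Vm26Ab, Vm32E, aly, bam, chinmo, eIF4A, grsm, m-cup, obst-J, osk, per, polo, t-cup, tj, vri and zfh1 were chosen after their values were seen. Coordinates and sequences are not used here.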

Additional observations from a re-analysis of the deposited data

Results flagged for a closer look

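The response to 10000 R differed between days. The change at day 10 minus the change at day 2, each against its own controls, passed the threshold for 1726 genes (limma, a test of the difference itself). Against day 20 it did so for 1 gene, obst-J, at -5.72 (0 normalized counts in each library after 10000 R and 56.2 ± 4.16 in controls at day 10; SD, n = 3 each). Its 2 control libraries of day 20 were far apart, at 25.8 ± 35.1 (SD, n = 2).

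Only genes that passed this test and averaged 50 or more normalized counts are ranked here. The largest differences between day 10 and day 2 with a higher response at day 10 were those of BomBc1 (3.81), FBgn0010381 (3.14), Cht4 (2.38), CG7443 (2.26) and CG31041 (2.01) on the log2 scale. BomBc1, a Toll-induced peptide gene, averaged 242 ± 103 after 10000 R and 105 ± 18.96 in controls at day 10 (SD, n = 3 each). At day 2 it averaged 602 ± 765 after 10000 R and 2175 ± 353 in controls. Among the same genes the largest with a lower response at day 10 were those of CG1631 (-7.86), Hex-t1 (-7.46), CAH4 (-7.40), CG31752 (-7.36) and Ctr1C (-7.24). Hex-t1 averaged 429.7 ± 97.03 after 10000 R and 373 ± 24.8 in controls at day 2.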

How the results depend on the processing

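Falls after 10000 R numbered 2149 to 3137 over the settings tried, within 1.5 times the 2479 reported. The 276 rises became 3808 under quantile normalization, 553 with edgeR, 418 with DESeq2, 809 without the 9 libraries that stand apart and 1298 when the 6 libraries were fitted alone, and ran from 141 to 265 with 1 library left out. Rises made up 10.0% of the calls reported, 63.9% under quantile normalization, 20.5% without the 9 libraries and 30.5% with the 6 libraries alone. Against 20000 R the 87 calls became 50 with a pseudocount of 10, 180 without the filter, 204 under quantile normalization, 176 with edgeR, 524 with DESeq2 and 413 without the 9 libraries, and ran from 35 to 198 with 1 library left out. Against 5000 R the 3420 calls became 6034 under quantile normalization. The 1 call against day 20 became 0 with a pseudocount of 10, under quantile normalization and with edgeR, 14 with DESeq2 and 4 without the 9 libraries. It ran from 0 to 488 with 1 library left out, the highest without control library a of day 20, which leaves 1 control there that is assumed to vary like the other groups. The 1726 calls against day 2 stayed within 1.5 times. The causes were not tested. Of 161 named genes 135 to 160 kept their side of the threshold and, where either fit called them, their direction. Turns of sign without a call in either fit were not counted as changes. Among them were dhd, at 0.88 with all libraries and -2.42 without the 9, and hid, at 0.11 and -0.16. The change of yl turned to -2.73 without the 9 libraries, against 0.29 with all, and was called there (limma, adjusted p = 0.00484). No paired analysis was possible because the table's columns carry no replicate number. Depth limits the genes listed at 0, where only lower bounds are given.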

Other observations

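Further gene lists in the comparison of 10000 R with control at day 10 are read beside 2.21% higher and 19.9% lower of all genes. Of 116 histone genes, mostly copies that share reads, limma called 3 lower with all libraries and 24 lower without irradiated library c. DESeq2 called 9 higher and 0 lower, beside 418 and 2540 of all 12475 genes, and edgeR called 0. Under quantile normalization 38 were called higher and 2 lower, beside 3808 and 2149 of all genes. The list summed to 23379, 23567 and 67769.6 in irradiated libraries and 30740.4, 32723 and 31338 in controls. Of 79 cytochrome P450 genes 1 rose and 1 fell. Of 69 mitochondrial ribosomal proteins 1 rose and 2 fell, and of 14 glycolysis genes 2 rose and none fell. Of 16 caspases and their regulators 1 fell and none rose.

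By chromosome, 3.32% of the 1929 tested X-linked genes rose, beside 2.21% of all genes, and their median log2 change was 0.13, beside 0.03 for all genes.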
